A study of Mus musculus with 12 samples.

Results

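The 9 genes described here belong to the tricarboxylic acid (TCA) cycle and were examined in ChIP-seq peak lists from mouse liver: Cs, Idh2, Idh3a, Ogdh, Dlst, Suclg1, Suclg2, Fh1 and Mdh2. They were taken by name, 9 of the 21853 protein-coding genes of GENCODE mouse release 21 on the mm10 (GRCm38) build. For each gene the region examined was the gene body and 10 kb on either side, 31.9 kb at Mdh2, the shortest, and 265.8 kb at Suclg2, the longest. The question was where the histone demethylase LSD1 lay at these genes, and how dimethylated lysine 4 of histone H3 (H3K4me2), one of its substrates, was placed in liver with and without LSD1.

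The series held 12 libraries from the liver of C57BL/6 mice, 6 of them ChIP libraries and 6 control libraries that the labels call input with no antibody and the methods call IgG ChIP. LSD1 was immunoprecipitated from wild-type liver (2 libraries). H3K4me2 was immunoprecipitated from control liver, LSD1 fl/fl mice given AAV8-TBG-GFP (2 libraries), and from LSD1-LKO liver, LSD1 fl/fl mice given AAV8-TBG-Cre (2 libraries). The floxed allele was therefore shared by both H3K4me2 groups and not by the wild-type mice used for LSD1, and all H3K4me2 mice carried a viral vector. The Tbg promoter is active in hepatocytes, so the other cells of the LSD1-LKO liver keep LSD1. The mice were adult, and the labels and the ChIP-seq methods state neither age nor diet. The paper's mouse methods do give an age at injection for LSD1 fl/fl mice given these vectors. They describe a high-fat diet started after the injection, and male mice in most experiments. Chow-fed mice were also studied, and the diet of the mice behind these libraries is not named. The labels do not say how many mice each library came from, so the spread between libraries may be technical.

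The TCA cycle runs in the mitochondrial matrix, where it oxidises the acetyl group of acetyl-CoA to carbon dioxide and hands the electrons to the respiratory chain. In liver it also supplies carbon for glucose, fatty acid and amino acid synthesis. All of its enzymes are encoded in the nucleus, and H3K4me2 commonly flanks the transcription start site (TSS) of active genes.

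Each of the 3 lists holds peaks that were called in both libraries of a group, 14584 for LSD1, 43891 for control H3K4me2 and 50675 for LSD1-LKO H3K4me2. The lists hold no reads, so depth is unknown, and a gene without a peak is only a gene at which no peak was listed. Each entry gives the interval of a peak in the library listed first and in the library listed second. The first-listed interval was used as the position unless stated otherwise, and the names of first-listed H3K4me2 peaks carry the word picard, a read-processing tool, while those of second-listed peaks do not. The smallest p that 2 libraries against 2 can reach in an exact permutation test is 0.333, so no difference between control and LSD1-LKO could pass 0.05. Hepatocyte markers were marked by H3K4me2 at 4 of 6 promoters in control versus 6 of 6 in LSD1-LKO, against 58.8% and 58.9% of all protein-coding genes. The 3 Kupffer cell and leukocyte markers and the 3 endothelial markers had no promoter peak in either list. Stellate markers had a promoter peak at 1 of 3 in control versus 2 of 3 in LSD1-LKO, and cholangiocyte markers at 2 of 3 in both lists. The part of the cell types in the results below was not tested. Kdm1a, the gene of LSD1, had no H3K4me2 promoter peak in control but 2 in LSD1-LKO, which does not check its deletion because a promoter mark is not the excised exon or the protein.

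The promoter sequences below show the start regions on which the findings turn, 250 bases before to 50 after a TSS, 5′ to 3′ on the strand of the gene. They come from RefSeq on GRCm38.p6, which gave a promoter for 8 of the 9 genes, and Idh3a was the gene with no entry. Capitals mark letters of 3 short motifs, CCGGAAG (the GABP and ETS core), AAGGTCA (the core of sites of the estrogen-related receptors, ERR) and GCGCATG (the NRF1 core), each searched on both strands. Dlst is shown because its LSD1 peak was the strongest in both libraries together, and Idh2 because it had no LSD1 peak. Ogdh and Mdh2 are shown because LSD1 lay over starts that first-listed H3K4me2 peaks left open. At Mdh2 this held in both H3K4me2 lists, and at the Ogdh start shown in LSD1-LKO only.
Dlst, chr12:85110583-85110882, plus strand: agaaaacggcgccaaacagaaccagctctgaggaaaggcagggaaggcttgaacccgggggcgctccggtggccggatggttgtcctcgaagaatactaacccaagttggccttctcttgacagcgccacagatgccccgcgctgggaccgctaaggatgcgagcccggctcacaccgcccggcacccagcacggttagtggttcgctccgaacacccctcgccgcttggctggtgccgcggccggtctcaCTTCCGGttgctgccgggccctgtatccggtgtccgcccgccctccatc
Ogdh, chr11:6291920-6292219, plus strand: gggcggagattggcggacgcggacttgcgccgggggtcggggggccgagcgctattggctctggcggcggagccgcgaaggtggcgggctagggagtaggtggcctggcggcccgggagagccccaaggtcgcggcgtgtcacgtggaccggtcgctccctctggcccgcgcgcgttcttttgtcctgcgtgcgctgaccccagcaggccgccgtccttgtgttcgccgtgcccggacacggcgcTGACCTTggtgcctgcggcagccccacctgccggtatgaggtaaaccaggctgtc
Mdh2, chr5:135778399-135778698, plus strand: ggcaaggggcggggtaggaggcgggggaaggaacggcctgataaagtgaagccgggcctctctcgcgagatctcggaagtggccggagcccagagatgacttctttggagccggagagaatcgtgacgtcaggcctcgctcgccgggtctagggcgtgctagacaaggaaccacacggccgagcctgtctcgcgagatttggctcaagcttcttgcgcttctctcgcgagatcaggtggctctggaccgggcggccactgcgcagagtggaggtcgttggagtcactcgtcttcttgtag
Idh2, chr7:80115301-80115600, minus strand: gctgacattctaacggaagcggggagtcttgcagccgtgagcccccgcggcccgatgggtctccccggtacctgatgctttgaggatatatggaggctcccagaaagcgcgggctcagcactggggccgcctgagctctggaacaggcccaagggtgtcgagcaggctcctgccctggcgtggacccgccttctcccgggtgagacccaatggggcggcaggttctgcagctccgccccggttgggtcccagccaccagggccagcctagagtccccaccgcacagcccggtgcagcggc
The GABP core lay on the minus strand of the Dlst promoter, so that its reverse complement is printed, from 1 to 7 bases past the TSS, and was the only such match among the 8 genes, against 8.86% of all 32851 promoters in the RefSeq set. The ERR core lay across an internal Ogdh start, also on the minus strand, against 4.72% of all promoters. The NRF1 core was found upstream of Ogdh starts further into the gene, against 3.91% of all promoters. Mdh2 and Idh2 held none of the 3 motifs, which says only that these letters are absent from this window. The 13 promoter entries of the 8 genes held 11 to 37 CpG dinucleotides with a median of 20, against a median of 7 over all promoters, and 41.4% of all promoters held at least 11.

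LSD1 peaks were found at 7 of the 9 genes, and every one of these 7 had a peak within 1 kb of a TSS. Over all protein-coding genes 43.6% had an LSD1 peak in the same kind of window and 23.6% had one at a promoter, or 37.6% of the genes with H3K4me2 at the promoter in either list. Idh2 and Idh3a, catalytic subunits of the mitochondrial isocitrate dehydrogenases that use NADP and NAD, had no LSD1 peak anywhere in their windows. At a p-value of 1e-05 or below in both libraries 1 of the 7 genes still had a promoter peak, Dlst, against 23.2% of all genes with an LSD1 promoter peak. At a q-value of 0.05 or below it was again Dlst alone, against 27.9%. With so few genes the shares at these p and q thresholds are near the background. The 7 of 9 found without them lie above it, and this difference was not tested.

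The LSD1 peak at Dlst, which encodes the E2 subunit of the oxoglutarate dehydrogenase complex, spanned chr12:85110596-85111543 and covered the TSS, opposite which a transcript of Prox2 without a coding sequence also begins. Its fold enrichment over the control library was 3.90 in the first-listed and 3.82 in the second-listed library, and its −log10 p-values were 6.71 and 6.05. Ranked within the listed peaks of each library by −log10 p-value, where a percentile of 100 is the strongest peak, it stood at percentiles 91.0 and 81.0. Both libraries thus ranked the Dlst peak high among LSD1 peaks.

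At Ogdh, the E1 subunit of the same complex, the LSD1 peak spanned chr11:6291482-6292233 and lay over 5 of the 6 coding starts. Its fold enrichment was 3.32 and 3.85, and its percentiles were 62.6 and 72.2. The 2 genes of the complex were thus alike in having a peak over the start in both libraries, with Ogdh lower in rank than Dlst in each library.

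The 2 subunits of succinyl-CoA ligase, which makes GTP from succinyl-CoA, each had a peak over the start. At Suclg1, the alpha subunit, the peak spanned chr6:73248386-73248823 with a fold enrichment of 3.76 and 2.81 and percentiles of 73.5 and 34.4. At Suclg2, the GTP-specific beta subunit, it spanned chr6:95718443-95719015 with a fold enrichment of 4.03 and 3.14 and percentiles of 86.5 and 52.2. In both genes the second-listed library ranked the peak well below the first-listed one.

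Mdh2, malate dehydrogenase, shared its LSD1 peak at chr5:135777921-135778691 with Styxl1, which is transcribed in the opposite direction from the same start region. The fold enrichment was 2.60 in the first-listed and 3.82 in the second-listed library, and the percentiles were 30.8 and 78.3. Here the order of the libraries was turned round. A single peak over a shared start cannot be assigned to either gene.

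Fh1, fumarate hydratase, had the weakest promoter peak of the 7, at chr1:175625625-175626227, with a fold enrichment of 2.34 and 2.16 and percentiles of 22.7 and 12.5. Upstream of the Fh1 start this peak lay in an intron of a long transcript of Kmo, which runs the other way. Cs, citrate synthase, had the highest fold enrichment in the first-listed library, 4.79, but 2.78 in the second, and percentiles of 91.4 and 33.6. The Cs peak at chr10:128336234-128336747 lay upstream, with its near edge 987 bp from the TSS, and it was the only 1 of the 7 that did not cover a start. Its second-listed interval ended outside the 1 kb limit, so with second-listed positions 6 of the 9 genes had an LSD1 promoter peak. Over all genes with an LSD1 promoter peak, 73.7% had one that covered a start.

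**Figure D1:**
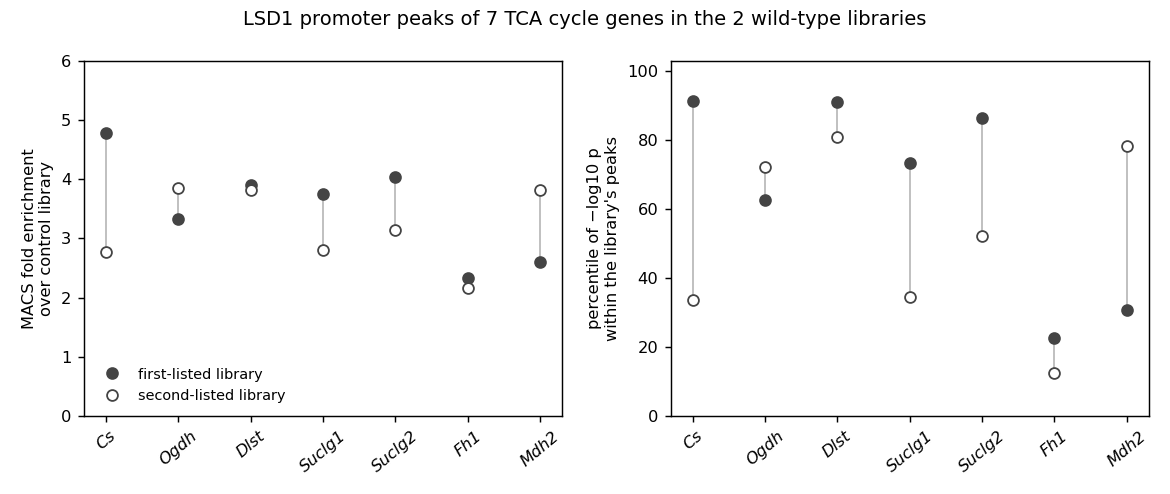
MACS fold enrichment (left) and percentile of −log10 p (right) for the LSD1 promoter peaks of the 7 genes that had one. Percentiles are among the listed peaks of a library, with the first-listed library as filled and the second-listed as open circles. Dlst is high in both libraries, Fh1 is low in both, and Cs falls from percentile 91.4 to 33.6.

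The 7 windows held 12 LSD1 peaks in all, 283 to 948 bp wide. Beside the 7 promoter peaks, 2 lay at the promoters of neighbours, Coq10a downstream of Cs and Prox2 upstream of Dlst, and 3 lay at no promoter, in an intron of Suclg1, in an intron of Fh1 and downstream of Mdh2. The intronic Fh1 peak at chr1:175607985-175608482 was stronger than the peak at the Fh1 promoter, with a fold enrichment of 3.78 and 4.61 and percentiles of 77.4 and 84.3. It overlapped no H3K4me2 peak in either list, but an LSD1-LKO H3K4me2 peak at chr1:175608511-175608787 began just past its end. The intronic peak of Suclg1 stood at percentiles 44.4 and 9.85 and likewise overlapped no H3K4me2 peak.

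The middle 300 bp of the LSD1 peaks differed in base composition. At Dlst, Ogdh and Suclg2 they held 35, 37 and 37 CpG dinucleotides, at Mdh2 24 and at Suclg1 17, whereas at the upstream Cs peak and the Fh1 promoter peak they held 2 and 6. Over all LSD1 peaks the median was 5, with quartiles of 2 and 20. The GABP core was present in 2 of the 12, at Ogdh and at Mdh2, against 5.74% of all LSD1 peaks. The ERR core was present in 1, at Prox2, against 7.6%, and the NRF1 core in 1, at Coq10a, against 2.26%.

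H3K4me2 was found at the promoters of all 9 genes in both lists, against 58.8% of all genes in control versus 58.9% in LSD1-LKO. The windows held 41 control peaks, of which 13 lay at the genes' own promoters, and 48 LSD1-LKO peaks, of which 17 did. Of the control peaks 30 of 41 overlapped an LSD1-LKO peak, where 68.1% of all control peaks did. Of the LSD1-LKO peaks 35 of 48 overlapped a control peak, where 64.1% of all LSD1-LKO peaks did. By first-listed intervals LSD1-LKO peaks were narrower, with a median width of 501 bp against 700 bp. The median was not taken for second-listed intervals, which did not all go this way. The widest was 4696 bp in LSD1-LKO versus 3358 bp in control at Cs, and 3279 bp versus 6004 bp at Suclg1. Over the whole lists the median widths of first-listed peaks were 565 bp and 648 bp.

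The LSD1 promoter peak overlapped a control H3K4me2 peak at 6 of the 7 genes, where 92.9% of all genes with an LSD1 promoter peak had such an overlap. The exception was Cs, whose upstream LSD1 peak ended before the first-listed control peak began and overlapped an LSD1-LKO peak at chr10:128336345-128336800. The second-listed control interval at Cs ran across the LSD1 peak, so the exception holds in the first-listed library only.

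**Figure D2:**
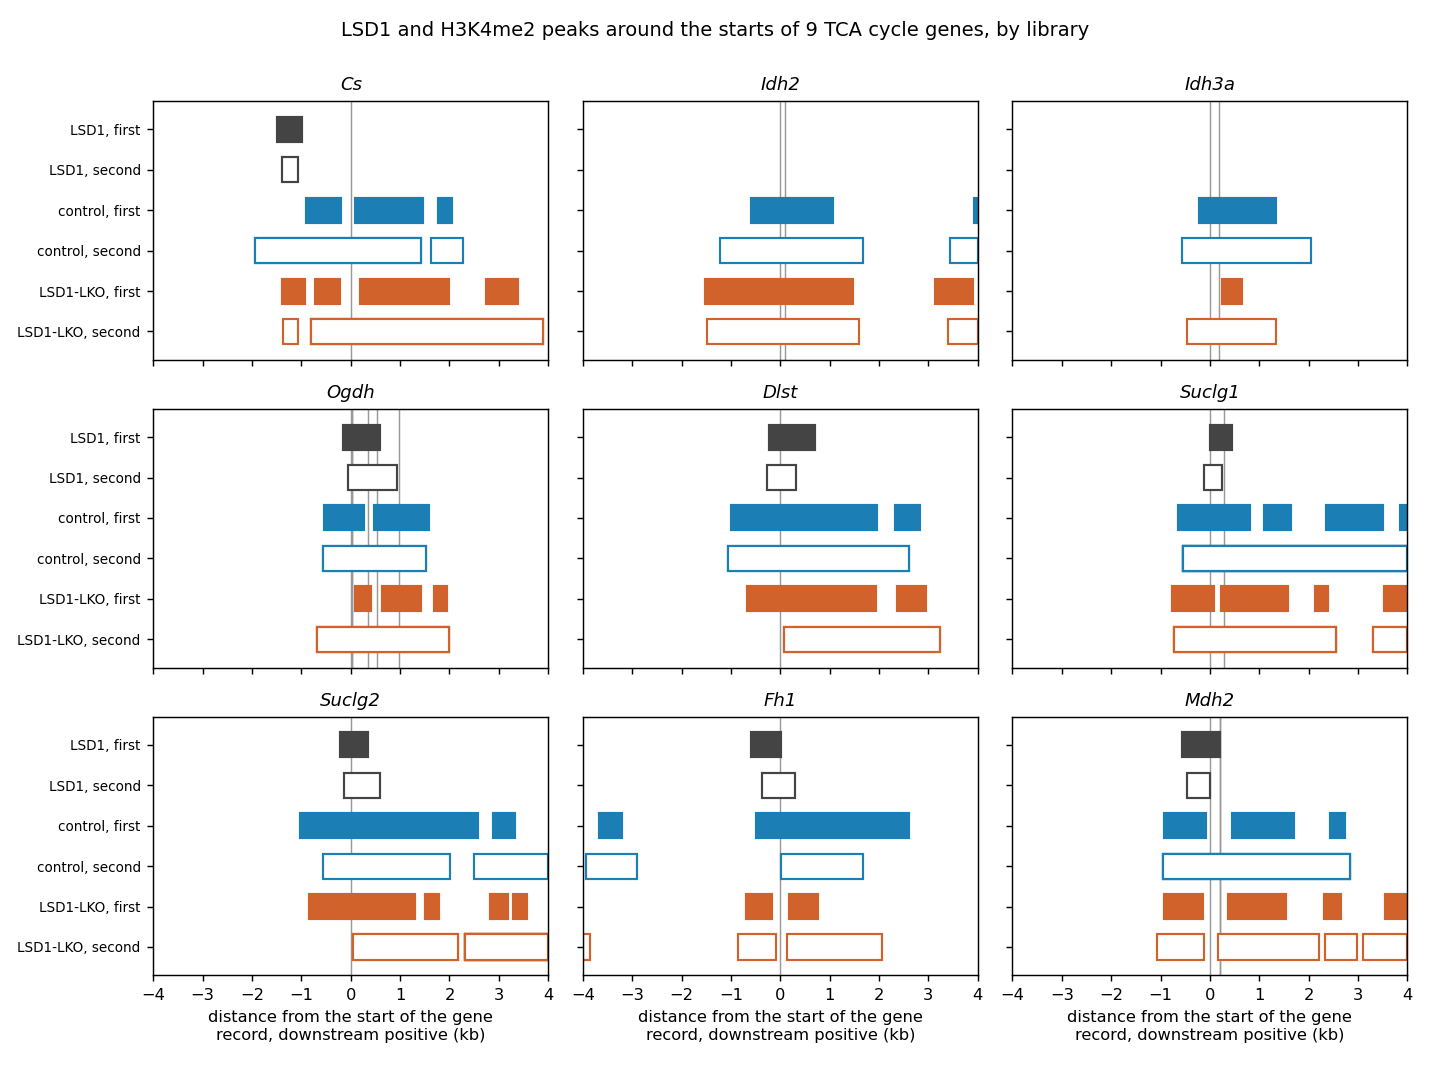
Peaks within 4 kb of the start of each gene record, by distance in the direction of transcription (kb), with first-listed intervals filled, second-listed intervals open, and grey lines at coding TSSs. LSD1 peaks (dark) sit at the start of 6 genes and upstream at Cs, and first-listed H3K4me2 intervals leave a start open at Cs, Ogdh and Mdh2 in control (blue) and also at Fh1 in LSD1-LKO (orange).

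At some genes first-listed H3K4me2 peaks lay on both sides of a start that none of them covered. In control this was seen at 3 of the 9 genes, with gaps of 288 bp at Cs, 200 bp at Ogdh and 512 bp at Mdh2, against 21.7% of all marked genes. In LSD1-LKO it was seen at 4, with gaps of 397 bp at Cs, 212 bp at Ogdh, 344 bp at Fh1 and 503 bp at Mdh2, against 28.2%. The gaps at Ogdh lay at different starts, 6291985 on chr11 in control and 6292172 in LSD1-LKO, each covered in the other list. The LSD1 peak of wild-type liver overlapped the gap at Ogdh and Mdh2 in both lists and at Fh1 in LSD1-LKO, and at Cs it lay outside the gap.

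These gaps rest on the library. With second-listed intervals no gap was left at the 9 genes in control, and 2 were left in LSD1-LKO, 207 bp at Fh1 and 290 bp at Mdh2, where all marked genes had a gap in 8.13% and 8.6%. At Fh1 both LSD1-LKO libraries thus had a gap over the start and neither control library had one. The share of all marked genes with this pattern was not counted. In first-listed control a single peak of 3096 bp covered the Fh1 start. The second-listed control interval ended just short of it with no peak on the other side, so that start was uncovered there too. In first-listed LSD1-LKO peaks of 588 bp and 542 bp lay on either side.

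The promoter bases under H3K4me2 peaks were compared next. Between the first-listed libraries coverage was lower in LSD1-LKO at 6 genes and higher at 3, with a median change of −242 bp, against −111 bp over the 13553 marked genes. Between the second-listed libraries it was lower at 5 and higher at 3, with a median change of −103 bp, against 13 bp over 13612 genes. Over the whole windows the median change was −744 bp in the first-listed and 477 bp in the second-listed libraries, so its direction depended on the library. Between the first-listed libraries the number of genes lower or higher by 1.5-fold or more was 1, Idh3a, and 0. This compares with 20.4% and 12.3% of marked genes. Between the second-listed libraries Idh3a was not called, Dlst and Suclg2 were lower and Fh1 was higher. The shares of all marked genes were not counted for those libraries.

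At Dlst the coverage of the 2001-bp promoter was 2001 and 2001 bp in the control libraries and 1685 and 929 bp in LSD1-LKO, first-listed library first. Both LSD1-LKO libraries were below both control libraries in this promoter. The 929 bp came from a second-listed interval of 3159 bp that began past the TSS and ran into the gene. Between the first-listed libraries the change was 0 bp with a promoter of 0.5 kb and −349 bp with 2 kb. Over the whole window coverage was 4652 and 4623 bp in control versus 3585 and 4684 bp in LSD1-LKO, which overlapped. The highest promoter peak was at percentiles 92.1 and 86.4 of its library in control versus 67.3 and 68.1 in LSD1-LKO, a difference of −21.6 points (exact permutation p = 0.333, two-sided). Dlst was the only 1 of the 9 genes that was lower without overlap in percentile, where 16.4% of genes were, and also the only 1 lower without overlap in coverage, where 13.9% were. Over all genes marked in both lists 3.18% were lower in both measures, which are read from the same peaks and are not independent.

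Suclg1 was the reverse. Its promoter coverage was 1642 and 1830 bp in control versus 1926 and 2003 bp in LSD1-LKO, and its percentiles were 51.7 and 42.8 in control versus 75.6 and 91.9 in LSD1-LKO, 36.5 points higher (exact permutation p = 0.333). It was the only gene higher without overlap in percentile, against 17.8% of genes, and the only 1 in coverage, against 10.7%, and 2.61% were higher in both. The second-listed control interval at Suclg1 was a single peak of 6004 bp that ran far into the gene. The gain in coverage depended on the region taken. Between the first-listed libraries the change at Suclg1 was −125 bp with a promoter of 0.5 kb and 372 bp with 2 kb. Over the whole window coverage was 5075 and 6419 bp in control versus 4829 and 5797 bp in LSD1-LKO, which overlapped.

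The succinyl-CoA ligase partner Suclg2 did not follow Suclg1 in coverage. Of its 3 coding starts the 5′ one alone was marked, with 2001 and 1569 bp in control versus 1837 and 946 bp in LSD1-LKO, ranges that overlapped. Its percentiles were 63.9 and 94.4 in control versus 93.6 and 95.6 in LSD1-LKO, where the spread between the control libraries, an SD of 21.6 points, was larger than the difference of 15.4. Without the first-listed control library that difference was 0.166 points and without the second-listed control library 30.7. Downstream, in an intron, the second-listed LSD1-LKO library held 1 interval of 5259 bp that 6 short first-listed peaks matched.

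At the isocitrate dehydrogenase genes Idh3a and Idh2, which had no LSD1 peak, control and LSD1-LKO libraries overlapped in both coverage and percentile. At Idh3a, the alpha subunit of the NAD enzyme, coverage was 1397 and 1744 bp in control versus 392 and 1641 bp in LSD1-LKO. The loss at Idh3a, by more than 1.5-fold, came from the first-listed library alone, where a control peak of 1569 bp across both starts was matched by a peak of 392 bp that began 76 bp past the nearer start. Between the second-listed libraries the change was −103 bp. The percentiles of 75.7 and 91.7 in control versus 88.3 and 81.8 in LSD1-LKO overlapped.

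At Idh2, the NADP enzyme, coverage was 1674 and 2089 bp in control versus 2089 and 2089 bp in LSD1-LKO, where the whole promoter was under a peak. The control peak of 1674 bp was matched by 2985 bp in the first-listed LSD1-LKO library, and 2899 by 3085 bp in the second-listed libraries. Its percentiles of 94.3 and 99.0 in control versus 98.4 and 90.4 in LSD1-LKO overlapped.

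At Ogdh the libraries disagreed. Coverage was 1928 and 2083 bp in control versus 1407 and 2652 bp in LSD1-LKO, so it was lower in the first-listed and higher in the second-listed library. The percentiles were 72.1 and 64.4 in control versus 50.7 and 87.0 in LSD1-LKO, and the mean difference of 0.607 points was small beside the SD of 25.7 in LSD1-LKO. The E1 and E2 genes of the oxoglutarate dehydrogenase complex therefore gave different patterns, and the difference between them was not tested.

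At Cs coverage was 1629 and 2001 bp in control versus 1387 and 1808 bp in LSD1-LKO, and the percentiles were 91.9 and 85.8 in control versus 91.8 and 99.9 in LSD1-LKO. Both measures overlapped, and they pointed in opposite directions. The high second-listed value belongs to an interval of 4696 bp that ran from upstream of the start into the gene.

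At Fh1 coverage, summed over the promoters of 2 coding starts, was 1485 and 995 bp in control versus 1205 and 2026 bp in LSD1-LKO. A part of the LSD1-LKO bases came from a peak near the internal start, where no control peak was listed. That peak was 277 bp wide in the first-listed and 514 bp in the second-listed library. The Fh1 percentiles were 86.1 and 78.7 in control versus 86.7 and 78.1 in LSD1-LKO, a difference of 0.018 points. The split of the peak over the start thus went with no difference in rank. At Mdh2 coverage was 1629 and 2158 bp in control versus 1635 and 1920 bp in LSD1-LKO, and the percentiles were 76.6 and 95.1 in control versus 84.0 and 95.1 in LSD1-LKO. The Mdh2 values of the 2 groups overlapped in both measures.

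Across the 9 genes the exact permutation p of the percentile difference lay between 0.333 and 1, with 2 genes, Dlst and Suclg1, at the smallest value that 2 libraries against 2 allow.

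**Figure D3:**
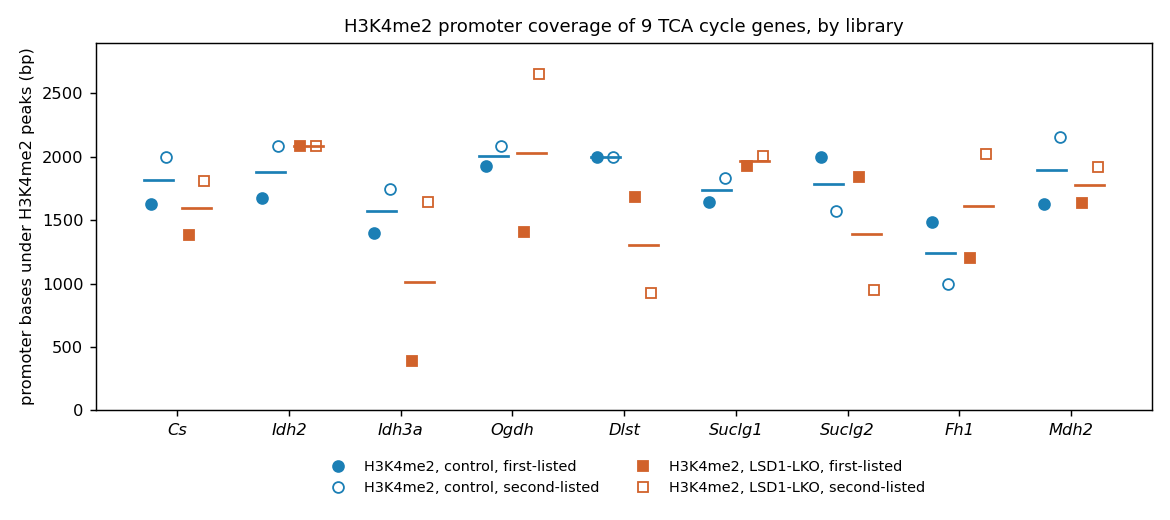
Promoter bases (bp) under H3K4me2 peaks in each of the 4 libraries, with control as blue circles, LSD1-LKO as orange squares, first-listed libraries filled, second-listed open, and lines at the mean of 2 libraries. LSD1-LKO values lie below control at Dlst and above at Suclg1 without overlap, and the drop at Idh3a to 392 bp is in 1 library.

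**Figure D4:**
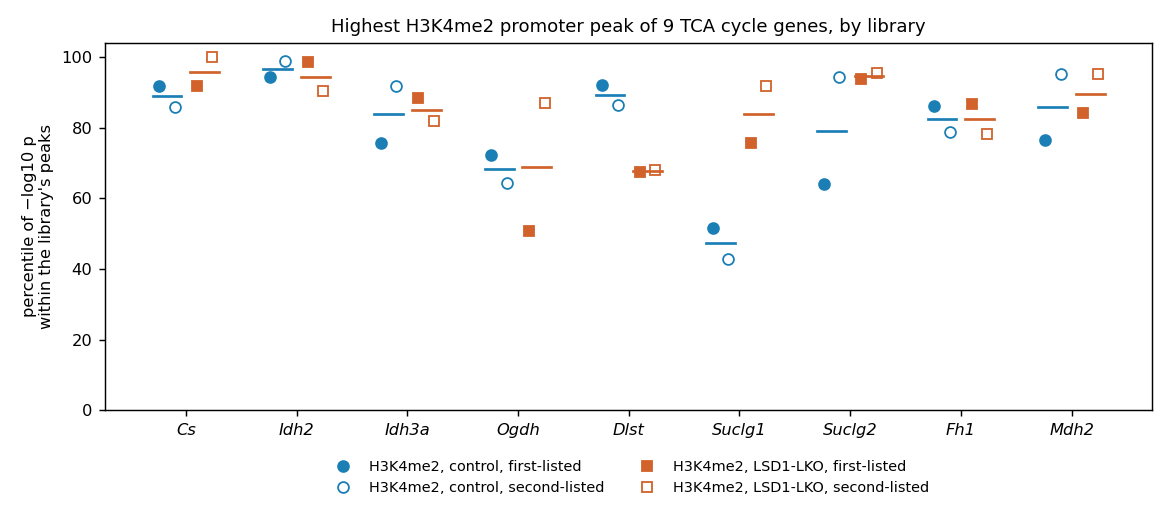
Percentile of the highest H3K4me2 promoter peak of each gene among the listed peaks of its library. Symbols are as in the plot of promoter bases, with lines at the mean of 2 libraries. Dlst falls from 92.1 and 86.4 to 67.3 and 68.1, Suclg1 rises from 51.7 and 42.8 to 75.6 and 91.9, and the other 7 genes overlap.

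Other genes of the pathway were read the same way, 8 further cycle subunits, 5 genes of acetyl-CoA and oxaloacetate supply and 3 cytosolic counterparts. LSD1 was listed at the promoter of 8 of these 16, against 23.6% of all genes and 37.6% of those with promoter H3K4me2 in either list. Among the 8 were Sucla2 (the ATP-specific beta subunit of succinyl-CoA ligase), Sdha and Sdhb (succinate dehydrogenase) in the cycle. Sdhb ranked high in both libraries, with a fold enrichment of 5.66 and 5.38 and percentiles of 96.3 and 92.9, above every promoter peak of the 9 genes in both libraries. Pdhb and Pdhx of the pyruvate dehydrogenase complex, Pcx (pyruvate carboxylase), Aco1 and Mdh1 were the others, with percentiles between 39.6 at Pdhb and 97.0 at Aco1 in the first-listed library. In the second-listed library Aco1 was at 29.3 and Mdh1 at 1.90, so these ranks rest on the library. The other subunit genes of the NAD isocitrate dehydrogenase, Idh3b and Idh3g, had no LSD1 promoter peak, as Idh3a had none, and Idh3b had an LSD1 peak elsewhere in its window.

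H3K4me2 was present at the promoters of all 16 in both lists. Coverage was lower by 1.5-fold or more at 4 and higher at 1, against 20.4% and 12.3% of all marked genes. The median change was −161 bp in the first-listed libraries, against −111 bp over all marked genes. The percentile was lower without overlap at 5 and higher at 3, against 16.4% and 17.8% of genes marked in both lists. Sucla2 had coverage of 2422 bp in control versus 2091 bp in LSD1-LKO in the first-listed libraries and percentiles of 89.8 and 83.0 in control versus 79.2 and 80.0 in LSD1-LKO, so that of the succinyl-CoA ligase genes Sucla2 was lower in percentile, Suclg1 higher and Suclg2 overlapping. Neighbouring start regions in the windows carried H3K4me2 as well, at Coq10a, Prox2, Styxl1 and Kmo.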

How the data were processed

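The authors mapped reads to mm10 with Bowtie2, called narrow peaks per library with MACS2 against the control libraries and joined the libraries of a group with bedtools 2.25.0 intersect, without pooling (tool names per the labels and the submitters' processing notes). The fold enrichment in the deposited lists is a ratio of ChIP pileup to local background. The −log10 p-value and −log10 q-value columns are the authors' MACS2 output, and the stated MACS2 threshold of p = 0.01 was exceeded in either library by 16.8% of LSD1, 5.96% of control and 7.22% of LSD1-LKO entries. Every entry overlapped at least 50% of its first-listed peak. The lists hold no reads, so depth and counting precision are unknown, and 12 columns of per-library values (integer scores and summit offsets) were not used.

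Positions were first-listed intervals. Promoters reached 1 kb to each side of the 54361 coding transcript starts (GENCODE release 21), and overlaps counted from 1 bp. Percentiles were taken within each library by −log10 p-value, so scores were not compared between lists, and ties shared a rank. They are among the listed peaks only, which were called in both libraries of a group. First-listed and second-listed libraries had 43891 and 35149 such peaks in control and 50675 and 38292 in LSD1-LKO. Coverage is the number of promoter bases under peaks. The control and LSD1-LKO libraries were compared with two-sided exact permutation tests over libraries. No other result has a test. Python 3.11.15, numpy 2.4.6, scipy 1.17.1 and matplotlib 3.10.9 were used, and overlaps were checked on simulated data and against bedtools 2.31.1. The genes were named by a list, further pathway genes by whether they had an LSD1 promoter peak, and neighbours by a TSS within 1 kb of a window peak. The genes, lists, motifs and markers were chosen with earlier results of these data known. The uncovered starts, the comparison of coverage over all 4 libraries and 14 kinds of alternative, which gave 49 of the recomputed values and include every percentile difference with 1 library left out, were added after seeing the values. A further gene of the pathway list is not reported here.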

Additional observations from a re-analysis of the deposited data

How the results depend on the processing

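Of 160 values recomputed under the alternatives, 16 reversed and 30 counts or medians moved by more than 1.5-fold or the spread between libraries. The other 114 kept their direction but not always their size. The spread of a median was the SD of its first-listed and second-listed values. A median with second-listed positions therefore counted as moved or reversed by construction. No paired analysis was possible because the columns of the lists carry no replicate number, so the fit with a replicate block was not run. The number of genes with an LSD1 peak was 1 in the window at p at or below 1e-05 and 2 at q at or below 0.05, and 1 at the promoter under both thresholds, also for promoter peaks on control H3K4me2. Promoter genes lower by the fold limit numbered 2 with 1 TSS per gene, the lower fold limit, p at or below 0.01, a promoter of 0.5 kb or 2 kb or second-listed positions, 3 with overlapping positions or q at or below 0.05, 4 at p at or below 1e-05 and 0 with the union of positions. Those higher numbered 1 with second-listed positions, p at or below 1e-05 or a 2 kb promoter. The median promoter change was −103 bp with second-listed or union positions, −109 bp at 0.5 kb and −349 bp at 2 kb. The median window change reversed to 477 bp with second-listed and 631 bp with union positions. Genes lower and higher without overlap in percentile numbered 0 at p at or below 1e-05, where Dlst had no LSD1-LKO and Suclg1 no control promoter peak left, so that no percentile could be formed and coverage differed by −2001 and 1063 bp. Genes higher numbered 2 when ranked by fold enrichment. Genes with an uncovered start numbered 0 in control and 2 in LSD1-LKO with second-listed or union positions. Ranked by fold enrichment, the percentile differences reversed to −0.862 at Fh1, 2.53 at Idh2, −1.85 at Idh3a and −3.21 at Ogdh. Leaving out 1 library at a time, 10 of 36 differences reversed, and they ranged from −4.28 to 4.31 at Fh1, −6.20 to 1.81 at Idh2, −6.66 to 9.33 at Idh3a, −5.54 to 13.01 at Mdh2 and −17.6 to 18.8 at Ogdh, and from 0.166 to 30.7 without reversing at Suclg2. Those of Dlst and Suclg1 kept their direction in these runs. The cause of these changes was not tested.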
